A study of Mus musculus with 36 samples.

Results

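The miR-378 family was followed through small RNA sequencing of mouse kidneys. It was taken as the 5 mature miRNAs named mmu-miR-378a-3p, mmu-miR-378a-5p, mmu-miR-378b, mmu-miR-378c and mmu-miR-378d, written here without the prefix, which are 5 of the 1915 mature miRNAs counted. The family was chosen by measured values: the rise of miR-378d between postnatal day 1 (P1) and P7 in Pkd1 WT kidneys brought it to attention, so changes with age in Pkd1 WT kidneys are given below as a description, with no test. The kidneys came from C57BL/6 mice of 2 floxed lines, Pkd1 f/f and Pkd2 f/f, whose genes encode the polycystins that are lost in autosomal dominant polycystic kidney disease. In each line, kidneys of animals that also carried the HoxB7-Cre transgene (KO) were set against kidneys of animals with the floxed alleles and no Cre (WT) at P1, P3 and P7, to follow miRNAs along cyst growth. There were 3 libraries in each of the 12 groups, 36 in all. HoxB7-Cre acts in the ureteric bud and the collecting ducts derived from it, so most cells of a KO kidney are outside the lineage that carries the deletion. The libraries were made from kidney tissue, in which fewer cells of a type and less miRNA per cell cannot be told apart.

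MiRNAs are short RNAs that guide Argonaute proteins to messenger RNAs, mainly by pairing through the seed at their 5′ end. miR-378a is excised from an intron of Ppargc1b, the gene of a coactivator of mitochondrial genes, and is known from muscle, heart and brown fat, where it takes part in the control of oxidative metabolism. miR-378b, miR-378c and miR-378d are later-described relatives of the 3′ arm, encoded at separate loci.

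The sequences show how alike these relatives are and where miR-378d departs from them. They are the mature RNAs that RefSeq lists on GRCm38.p6 for 3 of the 5 members, with the seed (bases 2 to 8) in capitals.
miR-378b: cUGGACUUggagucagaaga
miR-378c: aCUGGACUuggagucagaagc
miR-378d: aCUGGCCUuggagucagaaggu
miR-378b has 20 bases and lies at chr11:88352839-88352858 on the plus strand. miR-378c has 21 bases and lies at chr14:46954905-46954925 on the minus strand. miR-378d has 22 bases and lies at chr10:126710355-126710376 on the minus strand. With positions counted from 1 at the 5′ end and the base of miR-378c first, miR-378d differs from miR-378c by A6C, inside the seed, and by C21G, and is 1 base longer. miR-378b starts 1 base later than miR-378c and then differs from it at 1 of 20 bases, so that its seed is the same stretch read from the next base. In the GRCm38 annotation the hairpin of miR-378b lies in an intron of Msi2 and that of miR-378c in an intron of Samd4, each on the strand opposite to the gene. The hairpin of miR-378d overlaps no annotated gene, and the nearest coding gene, Atp23, is 158036 bases away.

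Libraries held 12569939 to 32663566 reads. All 9 listed nephron markers were detected in every library, among them miR-30a-5p at 19052 or more normalised counts per 1000000 reads (CPM), miR-192-5p at 3412 or more and miR-194-5p at 129 or more. miR-10a-5p and its close relative miR-10b-5p together took 57.9% to 81% of the reads in the 6 Pkd1 P7 libraries and 31.4% to 79.8% in the other 30. CPM values were therefore scaled by trimmed mean of M values (TMM), and ratios between members inside a library, which no scaling can change, are given beside them. The labels number the libraries of a group without naming animals, so the p-values measure the spread between these libraries.

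The family was an abundant one in these kidneys, and most of it was miR-378a-3p. Together the 5 members took 0.224% to 0.971% of a library. With a mean of 4871 CPM over the 36 libraries, miR-378a-3p ranked 23rd of 775 miRNAs. It was followed by miR-378c at 682 CPM, miR-378d at 146 CPM, miR-378a-5p, the other strand of the same hairpin, at 44.6 CPM, and miR-378b at 9.72 CPM. The mean of miR-378d is carried by the 6 Pkd1 P7 libraries: its median was 50.8 CPM, and in Pkd2 kidneys at P1 and P3 it was below miR-378a-5p, for instance at 35.1 against 43.7 CPM in P1 WT. The rarest member still had 18 to 570 reads in a library, and miR-378d had 224 to 11265. In the 30 libraries other than Pkd1 P7, miR-378a-3p made up 84.2% to 87.8% of the family's reads, and miR-378d 0.678% to 1.19%. In the 6 Pkd1 P7 libraries those shares were 77.6% to 79.4% and 8.25% to 8.94%.

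**Figure D1:**
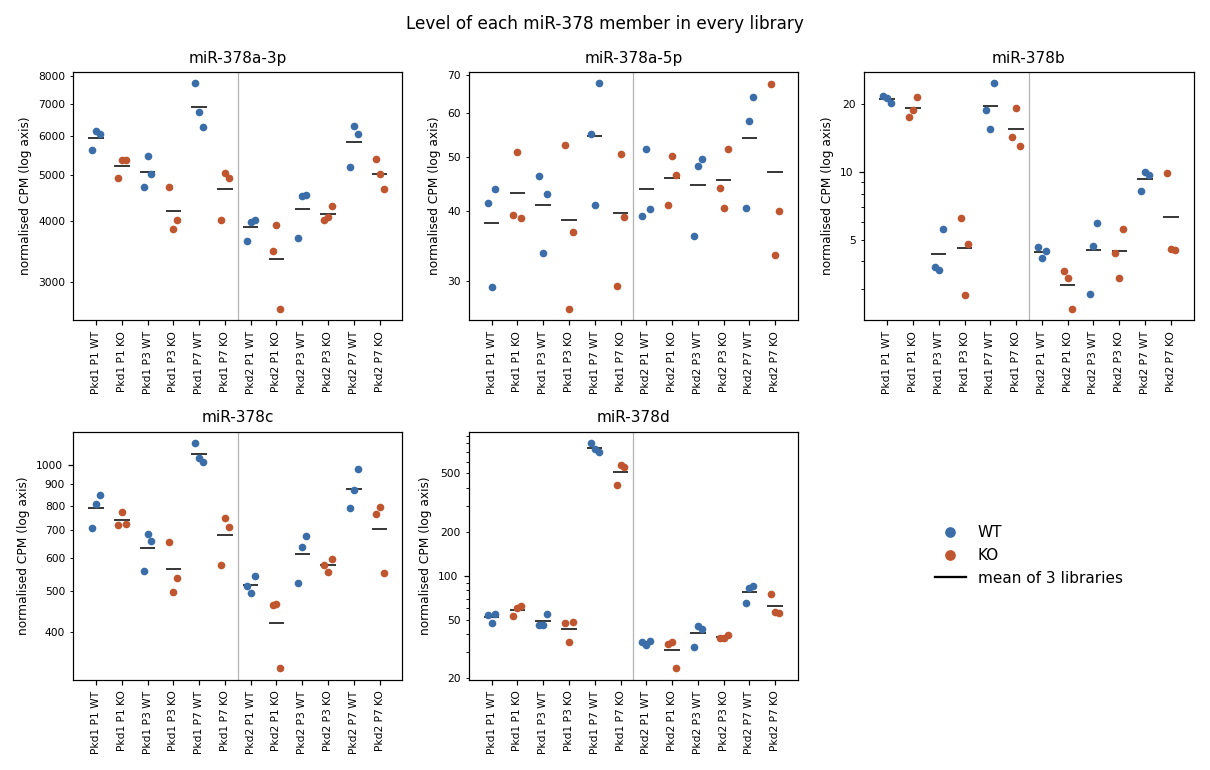
Normalised CPM (log axis) of the 5 members in each of the 36 libraries, by line, age and genotype. Points are libraries, blue for WT and orange for KO, and black lines are means of 3. miR-378d lay between 417 and 807 CPM in the 6 Pkd1 P7 libraries and between 23.4 and 84.7 CPM in the other 30.

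miR-378d was set apart from its relatives by 1 group of libraries, those of the Pkd1 line at P7. In Pkd1 KO kidneys it stood at 53.2, 60.7 and 61.9 CPM at P1, at 47.3, 35.1 and 48.4 CPM at P3, and at 417, 575 and 554 CPM at P7. Every P7 library was thus several times above every P1 and P3 library. Lack of overlap alone was seen in 47.2% of 706 miRNAs between P1 and P7 and in 35.1% between P3 and P7. From P1 to P7 miR-378d changed by 3.23 on the log2 scale (SE 0.19, a 9.41-fold rise, edgeR quasi-likelihood F-test, Benjamini-Hochberg adjusted p = 1.62e-08). It was the only one of the 5 members called in that comparison, in which 17.1% of 706 miRNAs were called. From P3 to P7 the change was 3.63 (SE 0.19, adjusted p = 3.91e-09 by edgeR). With libraries scaled by their totals alone the changes were 2.11 (adjusted p = 0.0116) and 2.17 (adjusted p = 0.00461), still called, with the median of all miRNAs at -1.16 and -1.52. Between P1 and P3 miR-378d was 0.40 lower on the log2 scale (SE 0.17), which did not pass (edgeR adjusted p = 0.169).

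The Pkd1 WT kidneys, whose values chose the family, had 53.9, 47.9 and 54.8 CPM of miR-378d at P1 and 46.1, 46.5 and 54.5 CPM at P3. At P7 they had 807, 738 and 697 CPM. The P7 minus P1 difference was 3.93 on the log2 scale, or 15.2-fold.

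In the Pkd2 line the same miRNA rose far less. Pkd2 WT kidneys had 35.2, 33.9 and 36 CPM at P1, 32.9, 45.2 and 43.4 CPM at P3, and 65, 83 and 84.7 CPM at P7. The P7 minus P1 change was 1.07 (SE 0.18, 2.1-fold, edgeR adjusted p = 0.000483), and all P7 libraries lay above all P1 and P3 libraries. Lack of overlap was seen in 50% of 746 miRNAs between P1 and P7 and in 27.1% between P3 and P7. Pkd2 KO kidneys had 34.2, 35.2 and 23.4 CPM at P1, 37.9, 37.4 and 39.5 CPM at P3, and 74.6, 56.9 and 55.9 CPM at P7, a change of 0.96 from P1 to P7 (SE 0.18, edgeR adjusted p = 0.00138). Both calls ended under library totals, at 0.38 in WT (adjusted p = 0.522) and 0.13 in KO (adjusted p = 0.83), where the median of all miRNAs was -0.78 and -0.97. The age change of miR-378d in Pkd1 KO kidneys exceeded that in Pkd2 KO kidneys by 2.12 on the log2 scale (SE 0.24, a 4.35-fold difference; edgeR adjusted p = 1.28e-06). It was the largest rise called in that contrast, in which 1.29% of 775 miRNAs were called, and miR-130a-3p was next with 1.16. With libraries scaled by their totals alone the difference was 1.98, with an adjusted p of 0.539.

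Ratios inside each library gave the same division without any scaling. For each 1000 reads of miR-378a-3p, the Pkd1 P7 libraries held 104, 109 and 111 reads of miR-378d in WT and 104, 114 and 113 in KO. The other 30 libraries held 7.79 to 13.9. Against miR-378c, from which miR-378d differs at 2 bases, the figures were 684 to 778 per 1000 in Pkd1 P7 libraries and 59.1 to 101 elsewhere. No library lay between. This division was drawn from the miR-378d values themselves, and its share over all miRNAs was not counted. The 6 high libraries include both genotypes: the means per 1000 reads of miR-378a-3p were 108 ± 3.38 (SD, n = 3) in WT and 110.2 ± 5.57 (SD, n = 3) in KO. A smaller step was seen in the Pkd2 line, where the 6 P7 libraries held 11.3 to 13.9 and the 12 earlier ones no more than 10. The labels name no batch, and the combination of line and age cannot be told apart from any handling that the Pkd1 P7 libraries shared.

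**Figure D2:**
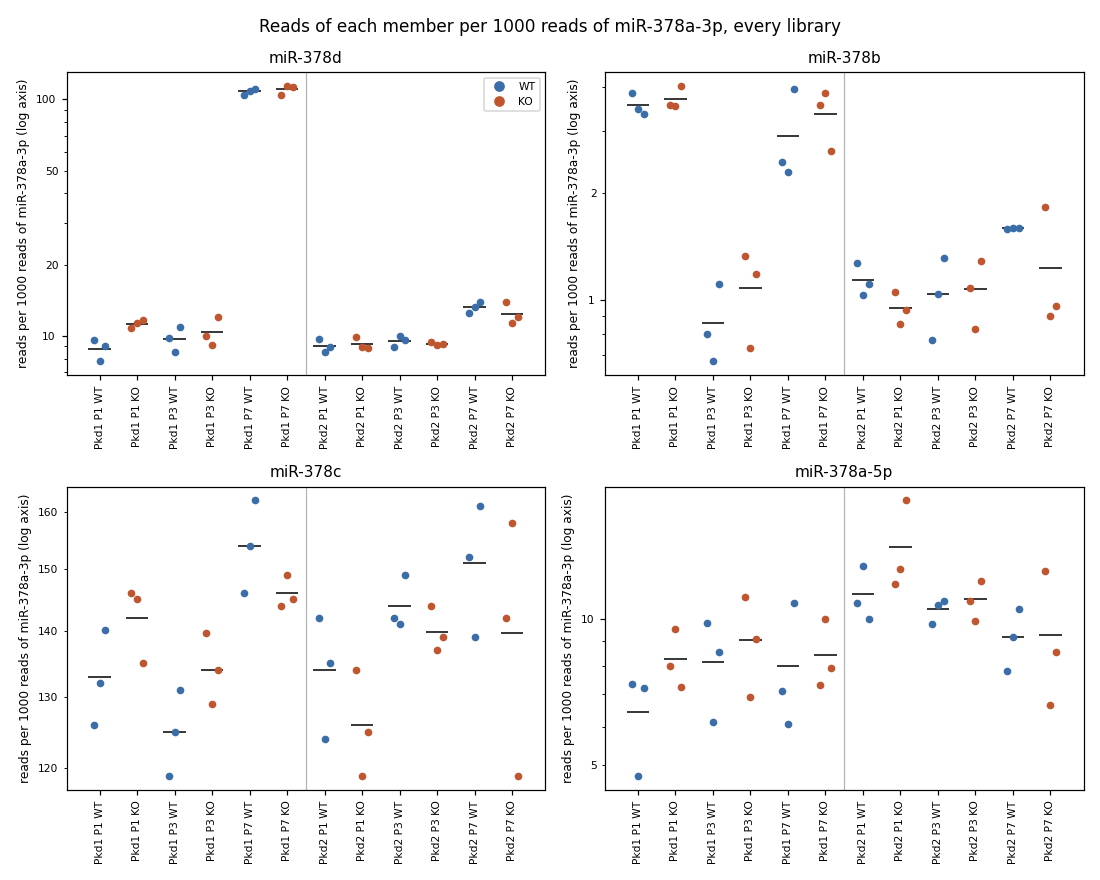
Reads of miR-378d, miR-378b, miR-378c and miR-378a-5p per 1000 reads of miR-378a-3p in each library (log axes; points are libraries, black lines means of 3). miR-378d forms 2 levels, 104 to 114 in Pkd1 P7 and 7.79 to 13.9 elsewhere, while miR-378c stays between 119 and 162 in all 36 libraries.

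miR-378b followed another pattern, high in the Pkd1 line at P1 and P7 and low at P3 between them. Pkd1 KO kidneys had 17.5, 18.8 and 21.6 CPM at P1, 6.25, 2.82 and 4.78 CPM at P3, and 14.3, 19.3 and 13 CPM at P7. The 3 P3 libraries lay below all 6 others, beside a lack of overlap in 26.1% of all miRNAs against P1 and 35.1% against P7. The fall from P1 to P3 was -2.00 on the log2 scale (SE 0.28, edgeR adjusted p = 0.000712), and miR-378b was the only member called among the 5 there, against 8.92% of all 706 miRNAs. With only the compared libraries in the fit the change was -1.95 and missed the threshold (adjusted p = 0.051). The rise from P3 to P7 was 1.78 (SE 0.28, edgeR adjusted p = 0.000928). Together with miR-378d this made 2 of 5 members called higher from P3 to P7, where 11.3% of all miRNAs were. Scaled by library totals the P3 to P7 change of miR-378b was 0.28 and was not called (adjusted p = 0.673), against a median of -1.52 over all miRNAs. The P1 to P3 call was lost there too (-1.60, adjusted p = 0.319).

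Pkd1 WT kidneys showed the same order, as a description. They had 21.7, 21.3 and 20.3 CPM at P1, 3.76, 3.67 and 5.57 CPM at P3, and 18.9, 15.5 and 24.8 CPM at P7. Per 1000 reads of miR-378a-3p, the 12 Pkd1 libraries of P1 and P7 held 2.3 to 4.02 reads of miR-378b, and the other 24 libraries 0.67 to 1.83. These ranges do not overlap, but the split follows the miR-378b pattern itself. Its share over all miRNAs was not counted, so it is a description. miR-378b and miR-378d thus shared the raised ratio at Pkd1 P7 and differed at Pkd1 P1, where miR-378d was at 7.79 to 11.6 per 1000, below the highest of the remaining libraries. In the Pkd2 line miR-378b was at most 10 CPM. It rose from P1 to P7 by 1.00 in WT (SE 0.31, edgeR adjusted p = 0.023). In KO the change was 0.96 (SE 0.31, edgeR adjusted p = 0.0357), and the P7 values were 9.85, 4.52 and 4.49 CPM. Without the first of these libraries the KO change was 0.46 and was not called (adjusted p = 0.238), and it was also lost without P1 replicate 2 or 3. The WT call was lost without any 1 of the P1 replicates or P7 replicate 2 or 3 (0.97 to 1.04).

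miR-378a-3p and miR-378c kept nearly the same proportion in all kidneys. Settings for multiple matches are not given, so their rows may share reads and may not be independent. miR-378c stood at 119 to 162 reads per 1000 reads of miR-378a-3p, a 1.37-fold range over 36 libraries. Under TMM, in Pkd2 WT kidneys miR-378a-3p went from 3634, 3991 and 4023 CPM at P1 to 5179, 6289 and 6074 CPM at P7. In Pkd2 KO kidneys it went from 3465, 3934 and 2634 CPM to 5376, 5020.3 and 4659 CPM. Neither genotype's P7 libraries overlapped its P1 libraries, beside 50% of 746 miRNAs without overlap in WT and 31.1% in KO. The change was 0.51 in WT (SE 0.14, edgeR adjusted p = 0.0138) and 0.54 in KO (SE 0.14, edgeR adjusted p = 0.0139). miR-378c changed by 0.69 in both genotypes (SE 0.17; edgeR adjusted p = 0.00657 in WT and 0.00879 in KO).

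Counting all members, 4 of 5 were called higher at P7 than at P1 in each Pkd2 genotype, where 11.4% of 746 miRNAs in WT and 11.8% in KO were called higher. The direction depends on scaling. With library totals in place of TMM, miR-378a-3p turned to -0.19 in Pkd2 WT and -0.35 in Pkd2 KO and miR-378c to -0.01 and -0.22, while the median of all 746 miRNAs moved to -0.78 and -0.97. Relative to that median miR-378a-3p was 0.59 higher in WT and 0.62 higher in KO under library totals, and 0.57 and 0.60 under TMM. The count of called members fell to 2 in WT without P1 replicate 1, beside 181 miRNAs called in all. It fell to 2 in KO without P1 replicate 3, the library with the lowest miR-378a-3p, beside 110 miRNAs. Between P1 and P3 edgeR called 0 of 5 members in Pkd2 WT, where 0.268% of miRNAs were called. It also called 0 of 5 in Pkd2 KO, where 0% were. At an unadjusted p under 0.05 there were 0 members in WT and 1, miR-378c, in KO, and DESeq2 called 0 in both. From P3 to P7 miR-378d alone was called, by 0.82 in Pkd2 WT (SE 0.18, edgeR adjusted p = 0.0151; 4.16% of miRNAs called) and by 0.69 in Pkd2 KO (edgeR adjusted p = 0.0275; 8.85% called). DESeq2 called 4 members in WT, where it called 76 of 746 miRNAs. The WT call was lost without P7 replicate 2 (0.84, adjusted p = 0.0573) or P7 replicate 3 (0.79, adjusted p = 0.055). The KO call was lost without P7 replicate 1 (0.53) or any 1 of the P3 replicates (0.64 to 0.72).

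In Pkd1 KO kidneys neither miRNA passed the edgeR test from P1 to P7. There miR-378a-3p was at 4914, 5349 and 5355 CPM at P1 and at 4016, 5036 and 4922 CPM at P7, a change of -0.06 (SE 0.15), and miR-378c changed by -0.03 (SE 0.16). Set against Pkd2 KO, the age change was lower by 0.75 for miR-378a-3p and by 0.86 for miR-378c (edgeR adjusted p = 0.0468 for both). With miR-378d these were 3 of the 10 miRNAs called in that contrast. Both calls were lost under median-of-ratios size factors, at -0.67 and -0.79. Both were also lost without any 1 of the Pkd1 P1 replicates, Pkd1 P7 replicate 1 or 3, Pkd2 P1 replicate 3, or Pkd2 P7 replicate 1 or 2, with -0.79 to -0.65 for miR-378a-3p. In Pkd1 WT kidneys, as a description, miR-378a-3p was 0.31 and miR-378c 0.52 higher at P7 than at P1 under TMM, and at -0.39 and -0.15 under library totals, where the median of all miRNAs was -0.68.

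**Figure D3:**
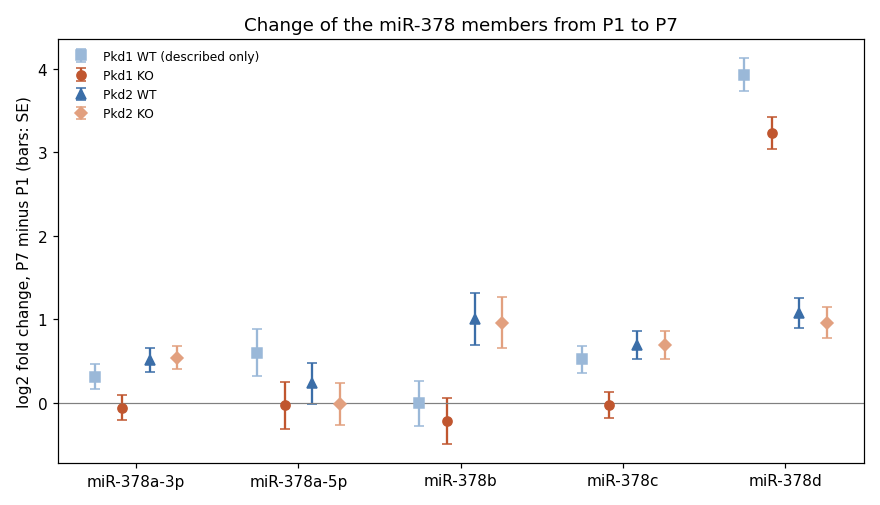
Log2 fold change from P1 to P7 of each member, with its SE, in the 4 combinations of line and genotype (3 libraries at each age; the Pkd1 WT values are descriptive). miR-378d changed by 3.23 to 3.93 in the Pkd1 line and by 0.96 to 1.07 in the Pkd2 line. The other 4 members lie between -0.22 and 1.00.

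The strand partner miR-378a-5p did not follow miR-378a-3p. It lay between 26.7 and 67.7 CPM over all libraries and was called in none of the 20 tested comparisons. Per 1000 reads of miR-378a-3p it ranged from 4.75 to 17.6, a 3.71-fold range from the same hairpin. The ratio was 4.75 to 11.1 in the 18 Pkd1 libraries and 6.65 to 17.6 in the 18 Pkd2 libraries, which overlap. In Pkd1 P7 libraries, where miR-378d was raised, miR-378a-5p was at 6.07 to 10.8 per 1000.

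No member passed the edgeR test between KO and WT kidneys in either line. In the 6 KO against WT comparisons the 30 log2 differences ran from -0.58 to 0.23, beside medians over all miRNAs of -0.05 to 0.03. The members share libraries, so the 30 values are not independent. edgeR called 0 of the 30, 3 had an unadjusted p under 0.05, and DESeq2 called 2. For edgeR the background was 0% at Pkd1 P1, Pkd1 P3, Pkd2 P1 and Pkd2 P3, 0.425% at Pkd1 P7 and 12.6% at Pkd2 P7. DESeq2, whose own background was 2.41% at Pkd1 P7, called its 2 members there, and the 3 low unadjusted p were there too. The WT arm of that comparison is made of libraries whose high miR-378d chose the family, which favours WT above KO. Its values, calls and unadjusted p are therefore a description. The Pkd1 P1 WT libraries were the low end of the same rise, so the Pkd1 P1 comparison is a description too. At Pkd1 P7 miR-378a-3p had 7724, 6739 and 6279.7 CPM in WT and 4016, 5036 and 4922 CPM in KO. Every KO library lay below every WT library for miR-378a-3p, miR-378c and miR-378d, 3 of 5 members, beside 16.4% of all miRNAs. The log2 differences were -0.51 for miR-378a-3p, -0.58 for miR-378c and -0.48 for miR-378d. Without WT replicate 3 edgeR called 2 of the 5, miR-378a-3p and miR-378c, beside 8 miRNAs in all. For the same reason this is a description and not a test. At Pkd2 P7 the 5 differences were -0.49 to -0.14, and 0 had an unadjusted p under 0.05. Without KO replicate 1 edgeR called 1 member there, beside 115 miRNAs in all. In the Pkd2 line the KO minus WT differences at P7 exceeded those at P1 by -0.25 to 0.02 over the members, with 0 called by edgeR or DESeq2, 0 at an unadjusted p under 0.05, and 0.536% of all miRNAs called.

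The 2 lines were next compared at equal age, with KO kidneys only. At P1, 4 of 5 members were higher in Pkd1 KO than in Pkd2 KO, where 5.94% of 775 miRNAs were called higher. miR-378b differed most, with 17.5 to 21.6 CPM against 2.46 to 3.63 CPM, a difference of 2.61 (SE 0.31, edgeR adjusted p = 2.98e-06). The differences of miR-378d (0.92), miR-378c (0.82) and miR-378a-3p (0.64) were smaller, with adjusted p of 0.000432, 0.000603 and 0.00213. Under library totals that of miR-378a-3p turned to -0.15, while the median of all miRNAs was at -0.85. There miR-378c differed by 0.03, miR-378d by 0.13 and miR-378b by 1.81. Only 1 of the 5 members was then called, beside 160 of 775 miRNAs. At P3 the 5 differences were -0.23 to 0.19. edgeR called 0, 0 had an unadjusted p under 0.05, DESeq2 called 0, and 4.26% of miRNAs were called. At P7, 2 of 5 were higher in Pkd1 KO, where 4.77% of all miRNAs were: miR-378d by 3.04 (SE 0.18, 8.24-fold, edgeR adjusted p = 4e-13) and miR-378b by 1.30 (SE 0.30, adjusted p = 0.00359). miR-378a-3p and miR-378c differed by -0.11 and -0.05 there. Under library totals miR-378d differed by 2.11 and miR-378b by 0.29 at P7, with the median of all miRNAs at -1.02. Line, litter and any processing batch cannot be told apart in these comparisons.

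miR-378c and miR-378d share their first 18 bases but for position 6, so their ratio was set beside those of other close pairs. This comparison was chosen after the values were seen and carries no test. Among miRNAs with a mean of at least 10 CPM, 35 pairs had the same start and exactly 1 difference in the first 18 bases. Only KO libraries are used here, since the Pkd1 WT libraries chose the family. In Pkd1 KO kidneys the ratio of miR-378d to miR-378c changed by 3.25 on the log2 scale from P1 to P7. The ratios of the other 34 pairs changed by -1.15 to 1.17, with a median of -0.02. The widest of these were miR-99a-5p over miR-100-5p at the low end and miR-92b-3p over miR-92a-3p at the high end. In Pkd2 KO kidneys the miR-378d to miR-378c ratio changed by 0.28, within the -1.41 to 1.34 of the other pairs. No other pair differs at position 6, so the set cannot show how reads are assigned for a difference at that base.

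**Figure D4:**
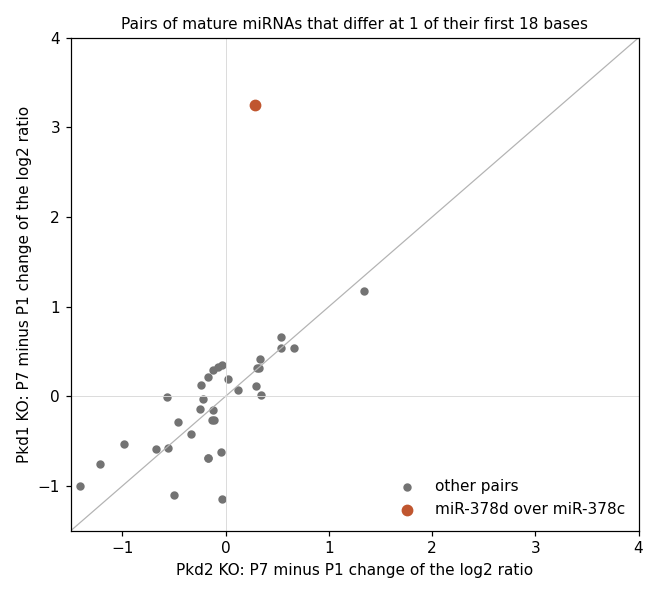
Change from P1 to P7 of the log2 ratio within 35 pairs of near-identical mature miRNAs, in Pkd2 KO (x axis) and Pkd1 KO kidneys (y axis), with 3 libraries at each age; the diagonal marks equal change. The miR-378d to miR-378c pair (orange) lies at 0.28 and 3.25, and the other 34 pairs between -1.15 and 1.17 on the y axis.

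Across the 36 libraries miR-378c tracked miR-378a-3p closely (Spearman's rho 0.946 over log2 CPM) and miR-378d less so (0.802). Without the 6 Pkd1 P7 libraries the value for miR-378d was 0.867. miR-378a-5p had a rho of only 0.281 with miR-378a-3p. Outside the family, the miRNAs most like miR-378d among 151 candidates with a mean of at least 100 CPM were miR-27b-3p (0.81), miR-181c-5p (0.805) and miR-101a-3p (0.792). Those most like miR-378a-3p were miR-30a-3p (0.786), miR-107-3p (0.76) and miR-30a-5p (0.729), the first and last of which are abundant in nephron tubules. The libraries share age, line and scaling, so these values describe likeness only.

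miR-378 is also abundant in striated muscle and fat, whose marker miRNAs were read in the same libraries. The 7 muscle markers summed to 31.9 to 60.2 CPM in Pkd1 P7 libraries and to 15.7 to 1786 CPM in the other 30. The medians were 45.6 and 30.8 CPM. In the 6 Pkd1 P7 libraries 4 of the 7 were detected throughout, with miR-133a-3p at up to 50.7 CPM, while miR-208a-3p was at 0 in 5 libraries, miR-499-5p in 3 and miR-206-3p in 2. miR-208a-3p was at 0 in 20 of all 36. The highest muscle sum, 1786 CPM, was in Pkd1 WT replicate 1 at P1. In its group that library was lowest for miR-378a-3p (5629 CPM) and miR-378c (709 CPM) and highest for miR-378b (21.7 CPM). For miR-378d (53.9 CPM) and miR-378a-5p (41.4 CPM) it lay between the others. Any part of muscle in the members' levels was not tested. The 5 fat markers summed to 279 to 393 CPM in Pkd1 P7 libraries and to 195 to 861 CPM elsewhere. Within the Pkd1 line the fat and leukocyte sums rose from P1 to P7 without overlap in either genotype. Of single miRNAs, 33.3% in WT and 47.2% in KO lacked overlap there. The fat sum went from 195 to 239 CPM to 294 to 393 CPM in WT. In KO it went from 215 to 256 CPM to 279 to 342 CPM, with 307 to 391 CPM at P3. The leukocyte sum went from 249.9 to 302 CPM to 417 to 686 CPM in WT. In KO it went from 248 to 285 CPM to 434 to 559 CPM. The nephron sum rose without overlap in Pkd1 KO only. In Pkd1 KO kidneys from P1 to P7, edgeR called 0 of the 6 muscle markers tested, 1 of 5 fat markers and 2 of 9 nephron markers higher and none lower. It also called 3 of 6 leukocyte and 1 of 5 erythroid markers higher, 1 of 7 epithelial markers lower, and 0 of 2 liver and 0 of 2 endothelial markers. Of all miRNAs, 10.1% were called higher and 7.08% lower there. The highest log2 change of a marker was 1.59 for leukocytes, 1.4 for liver, 1.35 for nephron and 1.3 for erythroid cells. It was 1.14 for epithelium, 0.78 for fat, 0.36 for muscle and 0.28 for endothelium. In Pkd2 kidneys several marker sums moved with the members from P1 to P7, without overlap in either genotype: those of fat, leukocytes, epithelium and nephron. The liver sum fell without overlap, from 9.51 to 289 CPM to 1 to 2.96 CPM in WT. In KO it fell from 21.8 to 44.1 CPM to 2.63 to 14.5 CPM. Of single miRNAs, 50% in WT and 31.1% in KO lacked overlap between these ages. The fat sum went from 359 to 398 CPM at P1 to 477 to 571 CPM at P7 in WT and from 384 to 490 CPM to 550.1 to 861 CPM in KO. The leukocyte sum went from 421 to 499.8 CPM to 714 to 815 CPM in WT and from 373 to 475 CPM to 696 to 885 CPM in KO. The epithelial sum went from 4307 to 4960 CPM to 6190.4 to 7549.7 CPM in WT and from 4037 to 5011 CPM to 6387 to 7510.4 CPM in KO. The nephron sum, which is mostly miR-10a-5p, went from 185413 to 227605 CPM to 293025 to 544707 CPM in WT and from 116263 to 198184 CPM to 204710.3 to 714307 CPM in KO. The part of these cell types in the age changes of either line was not tested.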

How the data were processed

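Small RNA reads of 36 mouse kidney libraries were analysed. The authors removed the 3′ adaptor, kept reads over 17 bases and counted them with miRDeep2 against miRBase 21; they deposited raw read counts, 1 row per mature miRNA and hairpin. The submitters' processing notes also name CASAVA 1.8.2 and HTSeq. Settings for mismatches or multiple matches are not given in the sources used here, so reads may be shared between near-identical members. Of a miRNA listed under several hairpins the row with the highest total was kept; each member had 1 row. A miRNA was tested where 3 or more libraries had 10 or more of its counts, with edgeR 4.0.16 (R 4.3.3): TMM, quasi-likelihood F-test, 1 term per group, Benjamini-Hochberg adjustment over all miRNAs tested, threshold 0.05. Fits used the 18 libraries of a line (706 miRNAs in Pkd1, 746 in Pkd2) or all 36 between lines (775). CPM come from the TMM of all 36. The self-test ran on simulated counts. DESeq2 1.42.0, other scalings and filters, a replicate block and leaving out libraries were alternatives. Replicate pairs within a group differed with a chi-square of 33.3 or more per degree of freedom. No library was thus a copy of another in its group, and copies between groups were not checked. The members and marker lists were chosen with earlier results of these data known. All 5 members were named in every comparison, with the 3 miRNAs most like miR-378d and the 3 most like miR-378a-3p.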

Additional observations from a re-analysis of the deposited data

Results flagged for a closer look

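The change from P1 to P7 differed between Pkd1 KO and Pkd2 KO kidneys for 3 members, by a test of the difference itself in edgeR over all 36 libraries. For miR-378d the 3 P7 libraries lay above the 3 P1 libraries in each line. Lack of overlap was seen in 47.2% of miRNAs in Pkd1 KO and 31.1% in Pkd2 KO. The difference between lines was 2.12 on the log2 scale for miR-378d (SE 0.24, edgeR adjusted p = 1.28e-06). It was -0.75 for miR-378a-3p (SE 0.19, adjusted p = 0.0468) and -0.86 for miR-378c (SE 0.22, adjusted p = 0.0468), which changed by -0.06 and -0.03 in Pkd1 KO and rose by 0.54 and 0.69 in Pkd2 KO under TMM. The direction of the Pkd2 rise of these last 2 turned under library totals alone (-0.35 and -0.22), while the differences between lines kept their sign. Line, litter and batch cannot be told apart.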

How the results depend on the processing

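miR-378d from P1 to P7 in Pkd1 KO was called under every alternative run, at 3.14 to 3.34 without any 1 library and at 2.11 under library totals. Scaling by library totals alone moved the median of all miRNAs by up to -1.36 (P7 minus P3 in Pkd1 KO), and 41 of 120 member differences changed sign. Under it miR-378d changed by 0.38 in Pkd2 WT and 0.13 in Pkd2 KO from P1 to P7 and the difference between lines was 1.98, none of them called. Under library totals 2 members were called for P7 minus P1 in Pkd1 KO, beside 192 of 706 miRNAs. The members other than miR-378d changed by -1.32 to -1.14 there. For P3 minus P1 in Pkd1 KO 0 members were called, beside 0 miRNAs. For P7 minus P3 in Pkd1 KO 3 were called (miR-378c lower, edgeR adjusted p = 0.044), beside 402 of 706 miRNAs. The count was 0 for the 4 Pkd2 changes to P7, beside 14 to 266 of 746 miRNAs. Between KO lines it was 1 at P1, beside 160 of 775 miRNAs, and 1 at P7. It was 0 for the difference in age change. Of the differences larger than 2 SE under TMM, those that reversed were miR-378c from P3 to P7 in Pkd1 KO (-1.10), miR-378a-3p (-0.19) and miR-378c (-0.01) from P1 to P7 in Pkd2 WT, both from P3 to P7 in Pkd2 WT (-0.09 and -0.03), both from P1 to P7 in Pkd2 KO (-0.35 and -0.22), miR-378a-3p from P1 to P3 in Pkd2 KO (-0.13) and between KO lines at P1 (-0.15). DESeq2 called 2 members for KO against WT at Pkd1 P7, a description since that WT arm chose the family. It called 4 from P3 to P7 in Pkd2 WT, beside 76 of 746 miRNAs. With only the compared libraries the counts were 0 for P3 minus P1 in Pkd1 KO and 0 for P7 minus P3 in both Pkd2 genotypes. The count was 1 for P7 minus P1 in Pkd2 KO, beside 60 miRNAs called in all. Without a filter the counts in Pkd2 KO were 2 for P7 minus P1, beside 134 miRNAs, and 0 for P7 minus P3. TMM without miR-10a-5p and miR-10b-5p also gave 0 for the latter. For the difference in age change between lines, median-of-ratios factors, TMM without miR-10, no filter, compared libraries only and the replicate block each called 1 member. The cause was not tested. Without 1 library the counts ran from 0 to 2 for KO against WT at Pkd1 P7, again as a description, and from 0 to 1 at Pkd2 P7. Over all miRNAs 2 to 8 and 4 to 142 were called in those fits. The member counts were 2 to 4 from P1 to P7 in each Pkd2 genotype, beside 110 to 200 miRNAs. They were 0 to 1 from P3 to P7 in each, beside 6 to 75 miRNAs. For the difference in age change they were 1 to 3. Same-numbered WT and KO libraries showed no steady joint deviation (18 pairs, r from -0.489 to 0.456, 7 over 0.1), and no pairing was used. With 3 libraries in a group this cannot exclude pairing. The paper states that controls were littermates of the same age, but the labels name no litter. With the replicate block miR-378b from P1 to P7 in Pkd2 KO was 0.93 with an edgeR adjusted p of 0.0557. Under that block miR-378a-3p and miR-378c lost their call between lines (edgeR adjusted p = 0.0778 for both). Summing miR-378a-3p, miR-378b and miR-378c into 1 row merges members, so no count of members was made under it. Depth limits miR-378b most, with 18 reads in 1 library.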
